A study of Mus musculus with 19 samples.

Results

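Granulocyte-monocyte progenitors (GMP) that carry 2 lesions at once, the PML-RARA fusion and loss of Dnmt3a, were compared with wild-type GMP. The members are the 4 arrays titled PR+/-, Dnmt3a-/- GMP and the 4 arrays titled Wild-Type GMP, 8 of the 19 arrays of the series, and all 15781 genes measured on them. They were taken from the sample titles. RNA was measured on Affymetrix mouse exon arrays. The other arrays used are 3 of Dnmt3a-/- GMP and 2 of PR+/- GMP, which carry 1 lesion each and add to the estimate of the spread between arrays.

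The labels give the wild-type and Dnmt3a-/- arrays the strain C57Bl/6J, the tissue whole bone marrow and the cell type GMP. The PR+/- and PR+/-, Dnmt3a-/- arrays carry a genotype and the tissue only, and their cell type stands in the title alone. The series title names PML-RARA, and PR in the labels is taken to mean it, carried on 1 allele, with Dnmt3a lost on both. The promoter that drives the fusion, the kind of Dnmt3a deletion, and the age and sex of the mice are not given in the labels. Neither do they say that the arrays of a group come from separate mice, so the p-values reflect nothing beyond the spread among these arrays, which may be technical. Every PR+/-, Dnmt3a-/- array belongs to the set labelled in the second style and every wild-type array to the set labelled in the first. Genotype and array set therefore cannot be told apart in any difference below that crosses the sets.

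PML-RARA joins the promyelocytic leukaemia protein to retinoic acid receptor alpha, and is the fusion of acute promyelocytic leukaemia. Retinoic acid receptors bind DNA with retinoid X receptors and hold target genes silent until retinoic acid arrives. Dnmt3a is a DNA methyltransferase that puts new methyl groups on CG sites and is itself often mutated in myeloid leukaemia. GMP give rise to neutrophils and monocytes, and close to them in the bone marrow lie the progenitors of basophils, mast cells and eosinophils. By its title, the series asks whether the fusion needs Dnmt3a to induce leukaemia.

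Levels are log2 intensities, the mean over the probe sets of a gene, and differences are PR+/- Dnmt3a-/- minus wild-type on that scale, so that 1 is a change of 2-fold. Each is given with its standard error (SE), and p-values are from limma, two-sided, adjusted over all 15781 genes by the Benjamini-Hochberg method. A gene is called when this adjusted p is below 0.05. The median gene had a level of 5.35 over the GMP arrays. The germline list, whose genes are silent in most adult tissues, had a median of 3.59, taken as background.

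The targeted genes were examined first. Dnmt3a had levels of 7.47, 7.39, 7.30 and 7.59 in the wild-type arrays and of 6.05, 6.26, 6.22 and 5.82 in the PR+/- Dnmt3a-/- arrays. The groups did not overlap, and the difference was -1.35 ± 0.13 (limma adjusted p = 7.25e-05). It was -1.31 ± 0.14 between Dnmt3a-/- and wild-type GMP and -0.30 ± 0.16 between PR+/- and wild-type GMP, comparisons that share the wild-type arrays. Of its 31 probe sets 16 were lower by more than 1, and the probe sets ranged from -5.42 to 0.72, so RNA outside the lowered exons was still detected. Pml and Rara, the fusion partners, were not called, with differences of 0.23 ± 0.13 and 0.32 ± 0.20. Whether their probe sets can detect the fusion is not given in the labels.

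The labelled cell type was checked against its markers. Mpo, the myeloperoxidase of primary granules, was at 12.87 ± 0.05 (SD, n = 4) in wild-type and 12.77 ± 0.13 (SD, n = 4) in PR+/- Dnmt3a-/- arrays. Kit, Cd34 and Fcgr3, on which GMP are usually sorted, differed by 0.21 ± 0.12, 0.36 ± 0.20 and -0.08 ± 0.26, and none was called. Cebpa, the transcription factor that GMP need, differed by 0.20 ± 0.13 and was not called either. The GMP markers did not all hold, however. Ctsg, a primary granule gene, was called lower, with a difference of -3.28 ± 0.67 (limma adjusted p = 0.014). Prtn3, another, was not called in the 13-array fit but was called lower in 3 of 20 alternatives. Both are described below. Ly6a, a stem cell marker that GMP lack, had mean levels of 3.63 ± 0.22 and 3.57 ± 0.28 (SD, n = 4), close to background. Il7r, the other marker chosen as absent from GMP, was not called. Of the markers of lymphoid cells, Ms4a1 (B cells), Cd3g (T cells) and Ncr1 (NK cells) had group means of at most 3.23 in both groups, below background. The B cell markers Pax5, Cd79a and Cd79b were above it, at 4.93 ± 0.32, 4.56 ± 0.93 and 8.68 ± 0.24 (SD, n = 4) in wild-type arrays. In PR+/- Dnmt3a-/- arrays they were at 4.85 ± 0.25, 4.04 ± 0.64 and 7.91 ± 0.39 (SD, n = 4). The T cell marker Cd3e was at 5.01 ± 0.20 and 4.88 ± 0.44 (SD, n = 4), also above background, and none of these lymphoid markers was called.

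Arrays also differed within each group. Genes of the immediate early and heat shock response, which handling can induce, had a mean level of 7.29 and 7.33 in wild-type arrays 1 and 2 and of 6.13 in each of arrays 3 and 4. In PR+/- Dnmt3a-/- arrays 1 and 2 it was 8.15 and 8.07, against 5.96 and 5.99 in arrays 3 and 4. The first principal component of the 8 arrays, with 27.98% of the variance, placed all wild-type arrays on one side and all PR+/- Dnmt3a-/- arrays on the other. The second, with 21.1%, separated the 4 arrays of high immediate early level from the other 4. Y-linked genes were low in wild-type array 4 (3.25) and PR+/- Dnmt3a-/- array 2 (3.12) and between 6.75 and 7.04 in the other 6.

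Of the 15781 genes, 556 (3.52%) were called. They comprise 350 higher in PR+/- Dnmt3a-/- GMP (2.22% of all genes) and 206 lower (1.31%). At an unadjusted p below 0.05 there were 2278 genes. By at least 2-fold, 170 of the called genes were higher and 105 lower, and the median difference over all genes was -0.03. In 536 of the called genes the 4 arrays of one group lay entirely above the 4 of the other, which held for 8.84% of all genes (4.56% with the PR+/- Dnmt3a-/- arrays above and 4.28% with them below). Differences of at least 1.5-fold were shown for 82 genes when tested as such, 62 of them higher and 20 lower. The plot of mean levels in both groups shows the called genes spread over the whole range of levels.

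**Figure D1:**
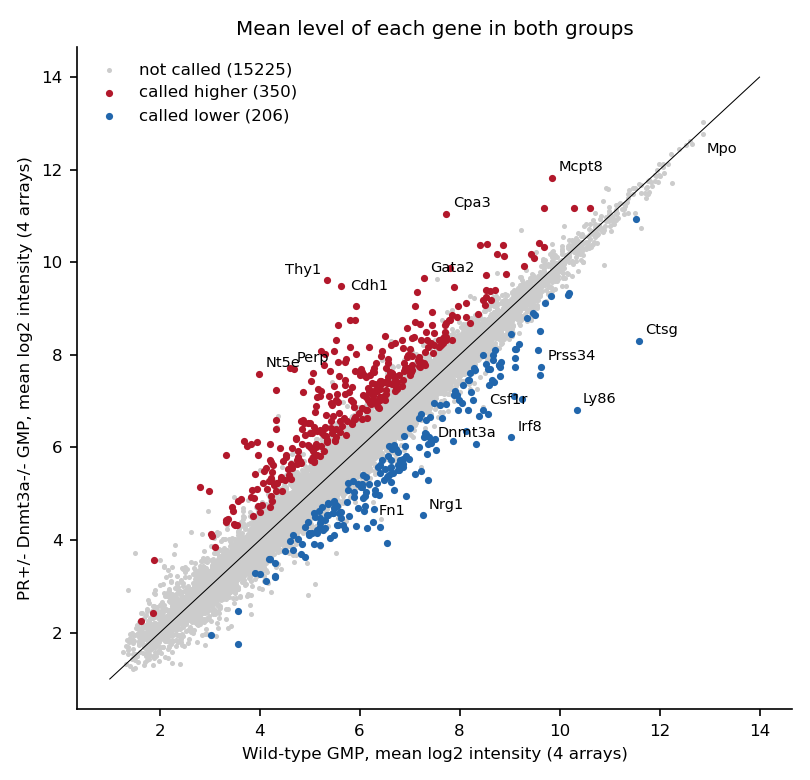
Mean log2 intensity of each of the 15781 genes in wild-type GMP (horizontal axis, 4 arrays) and PR+/- Dnmt3a-/- GMP (vertical axis, 4 arrays); red points are the 350 genes called higher, blue points the 206 called lower, grey points the other 15225, and the line marks equal levels. Thy1, Cdh1 and Nt5e lie farthest above the line among the labelled genes, Ly86, Ctsg and Irf8 farthest below it, and Mpo lies on it.

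The 3 largest rises among the named genes were of Thy1, Cdh1 and Nt5e. Thy1, a surface glycoprotein known from T cells and neurons, had levels of 5.61, 5.50, 5.16 and 5.11 in wild-type arrays and of 9.77, 8.91, 9.39 and 10.36 in PR+/- Dnmt3a-/- arrays. All 4 arrays of the second group were above all of the first, by 4.26 ± 0.30 on the mean, or 19.2-fold (limma adjusted p = 8.49e-06). Cdh1, the adhesion protein E-cadherin, went from 5.58, 5.58, 5.96 and 5.42 to 10.20, 9.18, 8.76 and 9.79, a difference of 3.85 ± 0.28 (14.4-fold, limma adjusted p = 9.89e-06). All 8 probe sets of Thy1 and all 18 of Cdh1 rose by more than 1.

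Nt5e, the ectoenzyme CD73 that makes adenosine from AMP, was near background in wild-type arrays, at 4.07, 3.74, 3.86 and 4.27. In PR+/- Dnmt3a-/- arrays it was at 9.10, 7.30, 6.25 and 7.72, a difference of 3.61 ± 0.44 (12.2-fold, limma adjusted p = 0.000413), with array 1 highest and array 3 lowest.

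The promoters of 4 genes are printed, those with the largest rises and falls that the RefSeq table (GRCm38.p6) holds, because Dnmt3a acts on CG sites, which are in capitals. Each is the 250 bases before the gene start, 5′ to 3′ on the strand of the gene. That of Nt5e lies on the plus strand at chr9:88327359-88327608.
Nt5e: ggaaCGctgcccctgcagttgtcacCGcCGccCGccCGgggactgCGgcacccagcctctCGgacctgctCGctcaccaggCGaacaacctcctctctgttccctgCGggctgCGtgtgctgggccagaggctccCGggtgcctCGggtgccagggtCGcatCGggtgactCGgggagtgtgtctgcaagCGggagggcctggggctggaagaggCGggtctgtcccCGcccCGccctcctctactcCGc

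Perp, a membrane protein of desmosomes and a target of p53, had levels of 4.597, 4.71, 4.67 and 4.49 in wild-type and 8.66, 7.67, 6.74 and 7.75 in PR+/- Dnmt3a-/- arrays (3.09 ± 0.32, limma adjusted p = 0.000146). Rhoj, a small GTPase, and Fstl1, a secreted glycoprotein, were higher by 3.003 ± 0.44 and 2.90 ± 0.45. Array 1 was the highest for Nt5e, Perp, Rhoj and Fstl1, and in each gene the groups did not overlap. Perp was the 1 called member of the 20 measured p53 targets, whose median difference was 0.17.

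Thy1 and Cdh1 belong to the list of adhesion genes. Of its 21 measured integrins, selectins and other adhesion genes, 5 were called higher and 0 lower, against 2.22% and 1.31% of all genes. At an unadjusted p below 0.05 there were 9, as were 2278 of all 15781 genes. Their median was 0.15 beside -0.03 for all genes. Itga2b, the alpha chain of the platelet fibrinogen receptor, rose by 1.46 ± 0.21, and Selp, the adhesion protein P-selectin, by 1.01 ± 0.19.

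Basophil and mast cell genes were called most often among the lists. Of 15 measured members 8 were higher and 1 lower, against 2.22% and 1.31% of all genes, with a median of 1.22. Against the same wild-type arrays the median was 1.68 in PR+/- GMP and 1.12 in Dnmt3a-/- GMP, so the rise was also seen with either lesion alone. Cpa3, the carboxypeptidase of mast cell granules, had levels of 7.41, 8.63, 7.81 and 7.10 in wild-type arrays. In PR+/- Dnmt3a-/- arrays it was at 11.07, 11.002, 10.76 and 11.37, higher by 3.31 ± 0.29 (9.95-fold, limma adjusted p = 6.74e-05). The spread of Cpa3 was smaller in the second group, where every array was at or above 10.76. Its promoter lies on the minus strand at chr3:20242182-20242431 (RefSeq, GRCm38.p6, CG sites in capitals).
Cpa3: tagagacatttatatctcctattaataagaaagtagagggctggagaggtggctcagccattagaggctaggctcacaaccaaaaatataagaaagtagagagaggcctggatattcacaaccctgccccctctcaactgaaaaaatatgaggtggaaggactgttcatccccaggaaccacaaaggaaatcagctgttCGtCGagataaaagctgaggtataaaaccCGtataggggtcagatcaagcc

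Ms4a2, the beta chain of the IgE receptor, was at 5.47, 5.63, 6.504 and 5.63 in wild-type and 8.67, 8.19, 8.57 and 9.57 in PR+/- Dnmt3a-/- arrays (2.94 ± 0.35, limma adjusted p = 0.000384). Mcpt8, a protease of basophil granules, was already high in wild-type arrays, at 9.73, 10.46, 9.98 and 9.26, and rose to 11.96, 11.41, 11.95 and 11.999, by 1.97 ± 0.23 (limma adjusted p = 0.000294). Hdc, which makes histamine, rose by 1.51 ± 0.15. Abp1, the amine oxidase that degrades histamine, rose as well, from 4.77, 5.07, 5.27 and 5.002 to 8.06, 7.15, 6.76 and 7.80 (2.41 ± 0.28, limma adjusted p = 0.000344). The groups did not overlap in any of these genes.

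The members of the list did not all move together. Prss34, another basophil protease, fell by 1.89 ± 0.22 (limma adjusted p = 0.000294), from 9.49, 9.35, 10.05 and 9.63 to 7.23, 8.09, 7.97 and 7.69. Fcer1a, the alpha chain of the IgE receptor that Ms4a2 joins, was not called (1.22 ± 0.72). Its levels were 4.34, 5.02, 5.19 and 4.29 in wild-type arrays and 4.26, 4.18, 7.54 and 7.73 in PR+/- Dnmt3a-/- arrays. Arrays 1 and 2 of that group were in the range of wild-type, and arrays 3 and 4, of low immediate early level, were far above it. Without the 4 arrays of high immediate early level, in a fit that kept the single-lesion groups, Fcer1a was called higher (2.89, limma adjusted p = 0.0151). Kit, which mast cells also need, was not called.

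Eosinophil granule genes followed the same split of arrays in both groups. Ear6, an eosinophil ribonuclease, was at 5.76, 5.10, 8.33 and 8.23 in wild-type and 5.02, 5.86, 8.63 and 9.01 in PR+/- Dnmt3a-/- arrays, with arrays 3 and 4 higher in each. Epx, the eosinophil peroxidase, was at 6.999, 6.81, 8.68 and 8.52 and 7.57, 7.17, 9.48 and 9.63. None of the 6 measured eosinophil genes was called in limma, and 0 had an unadjusted p below 0.05. Epx was called higher without the 4 arrays of high immediate early level (0.95, limma adjusted p = 0.0224) and with that level as a covariate (1.07, limma adjusted p = 0.00208). In a sorted bulk population, a larger number of such cells and more RNA per cell cannot be told apart.

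Transcription factors of the myeloid lineages changed in both directions, 8 of 31 measured being higher and 2 lower, against 2.22% and 1.31% of all genes. Gata2, which acts in stem, mast and basophil cells, had levels of 7.28, 7.96, 7.01 and 6.87 in wild-type and 9.85, 9.60, 9.24 and 9.94 in PR+/- Dnmt3a-/- arrays (2.38 ± 0.25, limma adjusted p = 0.000146). Ikzf2, the zinc finger protein Helios, rose by 2.85 ± 0.30, from 5.57, 5.72, 6.24 and 6.06 to 9.35, 8.84, 8.04 and 8.76. Gata1, the erythroid and megakaryocytic relative of Gata2, rose by 1.66 ± 0.19. Gfi1b and Tal1, partners of the same programme, rose by 1.40 ± 0.19 and 0.73 ± 0.15. Id2, an inhibitor of helix-loop-helix factors, rose by 1.54 ± 0.30, and Tcf7, a factor of T cells and progenitors, by 1.59 ± 0.27. In all of these the 4 arrays of the second group lay above those of the first.

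Gata1, Gfi1b and Tal1 were the only called members of the 17 measured erythroid genes, whose median was 0.05. The defining erythroid genes Klf1, Epor and Slc4a1 differed by 0.40 ± 0.37, 0.17 ± 0.23 and 0.14 ± 0.13, and none was called. Of 16 megakaryocyte and platelet genes, 4 were higher and 0 lower, against 2.22% and 1.31% of all genes, with a median of 0.10. At an unadjusted p below 0.05 there were 7. Without the 4 arrays of high immediate early level, 2 were called higher and 0 lower. Itga2b, Selp and Cd9, a tetraspanin (1.56 ± 0.21), were among the 4 called. Gp9, Gp1bb and Vwf, also chosen as markers of the lineage, were not called. Pf4, the platelet factor that defines the lineage, was not called, at 7.68, 8.68, 6.39 and 6.16 in wild-type and 4.58, 4.86, 6.79 and 6.09 in PR+/- Dnmt3a-/- arrays, with overlap. It was called lower with only the arrays of high immediate early level and the single-lesion groups fitted (-3.46, limma adjusted p = 0.0155). Without the arrays of high level it differed by 0.17.

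Receptors for cytokines also changed in both directions, 5 of 21 being higher and 3 lower, against 2.22% and 1.31% of all genes. Csf2rb2, the mouse beta chain for interleukin-3, was at 4.77, 6.10, 5.62 and 5.75 in wild-type and 9.13, 8.30, 8.01 and 9.18 in PR+/- Dnmt3a-/- arrays, higher by 3.09 ± 0.33 (limma adjusted p = 0.000165). Csf2rb, the beta chain shared with interleukin-5 and GM-CSF, rose by 1.42 ± 0.17. Both genes lie side by side and are near-identical in parts, so their probe sets may share signal. Il18r1, a chain of the interleukin-18 receptor, was at 3.70, 3.72, 3.83 and 3.73 in wild-type arrays, close to background, and at 6.69, 6.29, 4.91 and 6.26 in PR+/- Dnmt3a-/- arrays (2.29 ± 0.32). Its neighbour Il18rap, the other chain, rose by 2.24 ± 0.29, from 5.72, 4.54, 5.83 and 5.56 to 8.09, 7.18, 7.41 and 7.93. Csf1r, Il6st, the chain gp130, and Ifnar2, a chain of the type I interferon receptor, fell, with differences of -1.02 ± 0.18 for Il6st and -0.57 ± 0.11 for Ifnar2.

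Fads2, a fatty acid desaturase, rose by 2.80 ± 0.33, with levels of 5.49, 6.08, 5.42 and 5.11 in wild-type and 9.13, 8.19, 7.46 and 8.53 in PR+/- Dnmt3a-/- arrays. Its neighbours Fads1 and Fads3 were higher by 1.02 ± 0.22 and 0.92 ± 0.17. Slc7a8, a carrier of neutral amino acids, rose by 2.50 ± 0.19, and Kcne3, a subunit of potassium channels, by 2.46 ± 0.27. Gdf3, a ligand of the TGF-beta family, was at 5.203, 4.70, 4.86 and 5.48 in wild-type arrays and between 7.46 and 7.86 in PR+/- Dnmt3a-/- arrays (2.54 ± 0.17, limma adjusted p = 5.05e-06). Grb10, an imprinted adaptor that dampens insulin signalling, had little spread in either group and rose by 1.90 ± 0.12 (limma adjusted p = 5.05e-06). It was the 1 called gene of 18 imprinted genes.

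**Figure D2:**
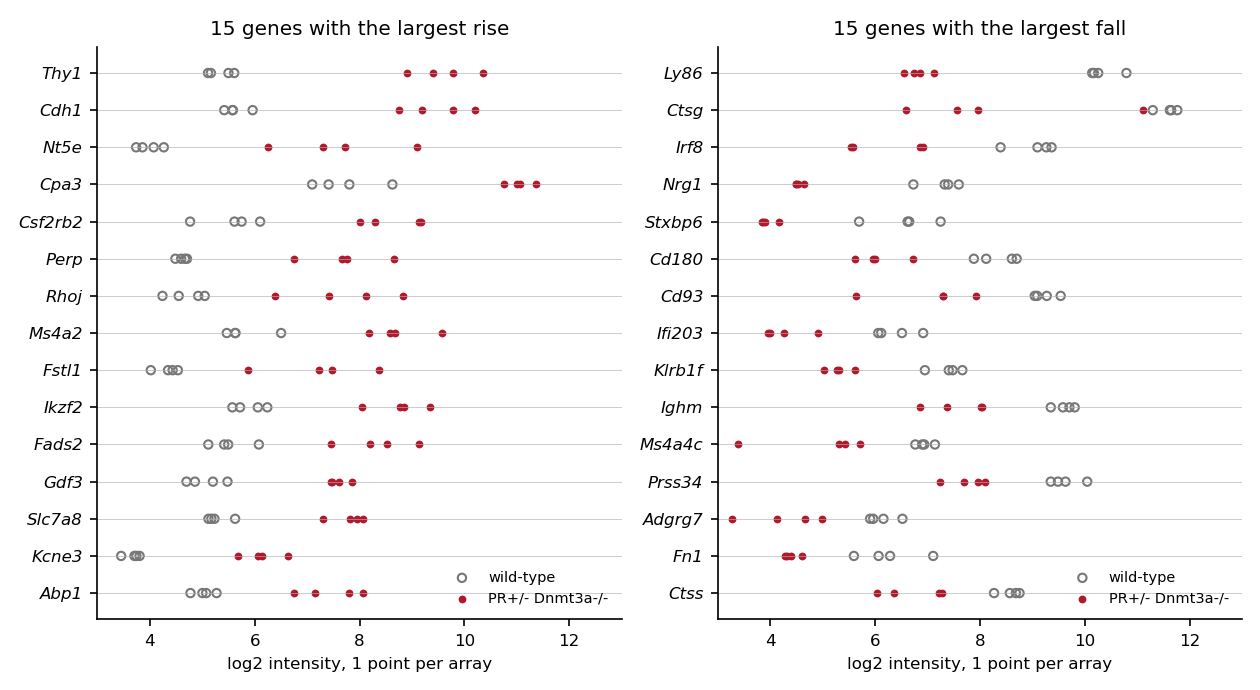
Log2 intensity on each array for the 15 named genes with the largest rise (left) and the 15 with the largest fall (right); open grey circles are the 4 wild-type arrays, filled red points the 4 PR+/- Dnmt3a-/- arrays. The groups are apart in every gene by the rule that chose them, the gap is narrowest for Ctsg, whose array 2 of the second group (11.12) lies just below the lowest wild-type array (11.30), and Nt5e, Fstl1 and Rhoj show a wide spread in the second group.

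Genes of monocytes formed the largest group of falls. Of 19 measured monocyte and macrophage genes 7 were lower and 0 higher, against 1.31% and 2.22% of all genes. Their median was -0.33 beside -0.03 for all genes. The same 7 had an unadjusted p below 0.05, as had 2278 of all 15781 genes. Ly86, the secreted protein MD-1, had levels of 10.17, 10.79, 10.14 and 10.26 in wild-type and 6.74, 7.13, 6.85 and 6.54 in PR+/- Dnmt3a-/- arrays. It fell by 3.53 ± 0.21 (11.5-fold lower, limma adjusted p = 3.80e-06), the largest fall of all named genes. Cd180, the Toll-like receptor relative that MD-1 binds on the cell surface, fell by 2.25 ± 0.24, from 8.61, 8.70, 8.12 and 7.88 to 5.62, 6.72, 5.99 and 5.96. The promoter of Ly86 lies on the plus strand at chr13:37345095-37345344 (RefSeq, GRCm38.p6, CG sites in capitals).
Ly86: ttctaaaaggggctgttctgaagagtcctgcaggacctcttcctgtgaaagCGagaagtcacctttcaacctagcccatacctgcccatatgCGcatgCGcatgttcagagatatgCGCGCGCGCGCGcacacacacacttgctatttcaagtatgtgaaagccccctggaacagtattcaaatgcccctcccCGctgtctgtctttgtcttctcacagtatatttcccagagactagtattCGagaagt

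Irf8, the transcription factor that directs progenitors to monocytes and dendritic cells, was at 9.10, 8.39, 9.27 and 9.37 in wild-type arrays. In PR+/- Dnmt3a-/- arrays it was at 5.58, 6.91, 6.85 and 5.54, a difference of -2.81 ± 0.34 (7.01-fold lower, limma adjusted p = 0.000392), with arrays 1 and 4 lower than arrays 2 and 3. Klf4, another factor of monocytes, fell by 1.23 ± 0.22. Csf1r, the receptor for the growth factor of macrophages, fell from 8.68, 8.62, 8.29 and 8.31 to 6.63, 7.15, 6.90 and 6.54 (-1.67 ± 0.16, limma adjusted p = 6.75e-05). F13a1, the clotting subunit that monocytes carry and the neighbour of Ly86 on the chromosome, fell by 0.86 ± 0.15.

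Not every monocyte gene was lower. Adgre1, a macrophage surface receptor, differed by -0.22 ± 0.25 and the complement genes C1qa and C1qb by 0.35 ± 0.42 and 0.21 ± 0.34, and none of them was called. These 3 genes had mean levels between 4.14 and 5.28 in both groups. By contrast, 6 of the 7 monocyte genes that fell were above 8 in wild-type arrays.

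Lysosomal enzymes changed in both directions. Of 17 measured, 4 were lower and 2 higher, against 1.31% and 2.22% of all genes, with a median of -0.20. Of these, Ctsl missed the threshold in 6 and Ctsz in 5 of the 8 fits that left out 1 array. Ctss, the cathepsin that trims the class II invariant chain, fell by 1.85 ± 0.27, from 8.57, 8.27, 8.69 and 8.76 to 6.03, 6.36, 7.22 and 7.28. Ctsh fell by 1.71 ± 0.29, and Ctsc, the cathepsin that activates granule proteases, fell by 0.73 ± 0.15. Ctse, an aspartic protease, rose by 1.51 ± 0.28. H2-DMa, which loads peptide on class II molecules, fell by 1.76 ± 0.30, from 8.18, 7.76, 8.27 and 8.29 to 5.37, 6.49, 6.99 and 6.59. The class II genes H2-Aa, H2-Ab1 and Cd74 themselves differed by 0.52 ± 0.54, 0.28 ± 0.34 and 0.29 ± 0.28 and were not called.

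Ctsg, the cathepsin G of primary granules, had the second largest fall and the widest spread of the 30 genes shown. Its levels were 11.30, 11.77, 11.65 and 11.62 in wild-type arrays and 7.96, 11.12, 6.59 and 7.56 in PR+/- Dnmt3a-/- arrays. Arrays 1, 3 and 4 were far below wild-type, while array 2 was nearly level with it. All 9 probe sets of Ctsg had array 2 as the highest of its group, each being lower in the second group by more than 1 on the mean. The difference was -3.28 ± 0.67 (limma adjusted p = 0.014), and the call was lost without PR+/- Dnmt3a-/- array 4 (adjusted p = 0.0512). It was also lost when the 8 arrays were fitted alone (0.0643). Array 2 also had the lowest Mcpt8, the adjacent gene on the chromosome, at 11.41. The promoter of Ctsg lies on the minus strand at chr14:56102575-56102824 (RefSeq, GRCm38.p6, CG sites in capitals).
Ctsg: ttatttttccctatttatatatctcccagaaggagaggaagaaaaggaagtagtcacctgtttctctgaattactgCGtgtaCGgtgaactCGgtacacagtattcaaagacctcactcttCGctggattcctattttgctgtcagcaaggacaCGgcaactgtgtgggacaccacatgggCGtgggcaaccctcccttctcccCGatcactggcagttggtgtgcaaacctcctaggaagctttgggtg

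No other primary granule gene was called lower in the 13-array fit. Mpo differed by -0.10 ± 0.11, and Prtn3, proteinase 3, was at 11.54, 11.42, 11.78 and 11.75 in wild-type and 9.998, 10.29, 11.59 and 11.06 in PR+/- Dnmt3a-/- arrays, with overlap (-0.89 ± 0.28, limma adjusted p = 0.118). Prtn3 was called lower with the immediate early level as a covariate (-0.73, limma adjusted p = 0.0184) and without PR+/- Dnmt3a-/- array 3 (-1.17, 0.0115). It was also called lower with only the arrays of high level and the single-lesion groups fitted (-1.34, limma adjusted p = 0.0211). Of 10 measured genes of this list, 1 was lower, Ctsg, and 1 higher, Hdc. Hdc, the enzyme that makes histamine, also stands in the basophil and mast cell list and is not itself a granule protein.

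Nrg1, a ligand of the EGF family, had levels of 7.33, 6.73, 7.39 and 7.60 in wild-type arrays and between 4.49 and 4.65 in PR+/- Dnmt3a-/- arrays (-2.72 ± 0.19, limma adjusted p = 8.49e-06). Fn1, the matrix protein fibronectin, fell by 1.86 ± 0.24, and Stxbp6, a SNARE-binding protein, fell by 2.61 ± 0.27. Cd93, a lectin-like receptor of progenitors, was at 9.05, 9.09, 9.28 and 9.54 in wild-type arrays and 5.64, 7.30, 7.92 and 7.30 in PR+/- Dnmt3a-/- arrays, with array 1 lowest (-2.20 ± 0.37). Ighm, the mu heavy chain that early progenitors transcribe before rearrangement, fell by 2.04 ± 0.29, from 9.81, 9.71, 9.58 and 9.35 to 6.85, 8.03, 8.02 and 7.37.

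Adgrg7, an adhesion receptor coupled to G proteins, fell by 1.88 ± 0.39. Klrb1f, Ifi203 and Ms4a4c fell, with differences of -2.07 ± 0.24, -2.12 ± 0.37 and -1.98 ± 0.43. The last 3 belong to families of near-identical genes, so which family member their probe sets measure is uncertain. Without wild-type array 3 or 4 Ms4a4c missed the threshold, with an adjusted p of up to 0.0594 in limma.

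Several of the lists, which were chosen with earlier results of these data known, had 0 or 1 called members. Of all 15781 genes 3.52% were called, and 2278 had an unadjusted p below 0.05. In lists of this size 0 or 1 call is close to that share, so it says little about their members. None of the 21 measured secondary granule and neutrophil maturation genes was called (5 at an unadjusted p below 0.05 in limma, smallest adjusted p 0.0611), and their median was 0.08. Mmp8, a neutrophil collagenase, came closest, at 7.27, 7.32, 5.93 and 5.95 in wild-type and 8.76, 8.18, 7.72 and 8.52 in PR+/- Dnmt3a-/- arrays (1.68 ± 0.45, limma adjusted p = 0.0611). None of 27 cell cycle and replication genes (4 at an unadjusted p below 0.05) and none of 19 Hox, Meis and Pbx genes (also 4) was called, with medians of -0.01 and -0.04. None of 26 chemokine genes was called (4 at an unadjusted p below 0.05), nor any of 22 mitochondrial genes (1 at an unadjusted p below 0.05). The lists of 13 B cell and 15 apoptosis genes also had 0 called members in limma, each with 3 at an unadjusted p below 0.05. With the immediate early level as a covariate, 2 cell cycle genes, 1 secondary granule gene and 1 chemokine gene were called higher.

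Of 20 measured retinoid receptors and retinoid targets, 1 was called, Rxra, the retinoid X receptor that pairs with retinoic acid receptors. It had levels of 4.605, 4.97, 4.67 and 4.84 in wild-type and 6.24, 5.92, 5.64 and 5.92 in PR+/- Dnmt3a-/- arrays, higher by 1.16 ± 0.18 (limma adjusted p = 0.002). Of 18 genes of the DNA methylation machinery, the 1 called was Dnmt3a itself. Of 23 germline genes, often silenced by promoter methylation, 1 was called, Tex14, which forms bridges between germ cells (1.16 ± 0.22), and the median of the list was 0.12. Of 22 interferon-stimulated genes, Ddx58, the RNA sensor RIG-I, rose by 0.84 ± 0.17 and Gbp3, a guanylate-binding protein, fell by 1.003 ± 0.16.

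**Figure D3:**
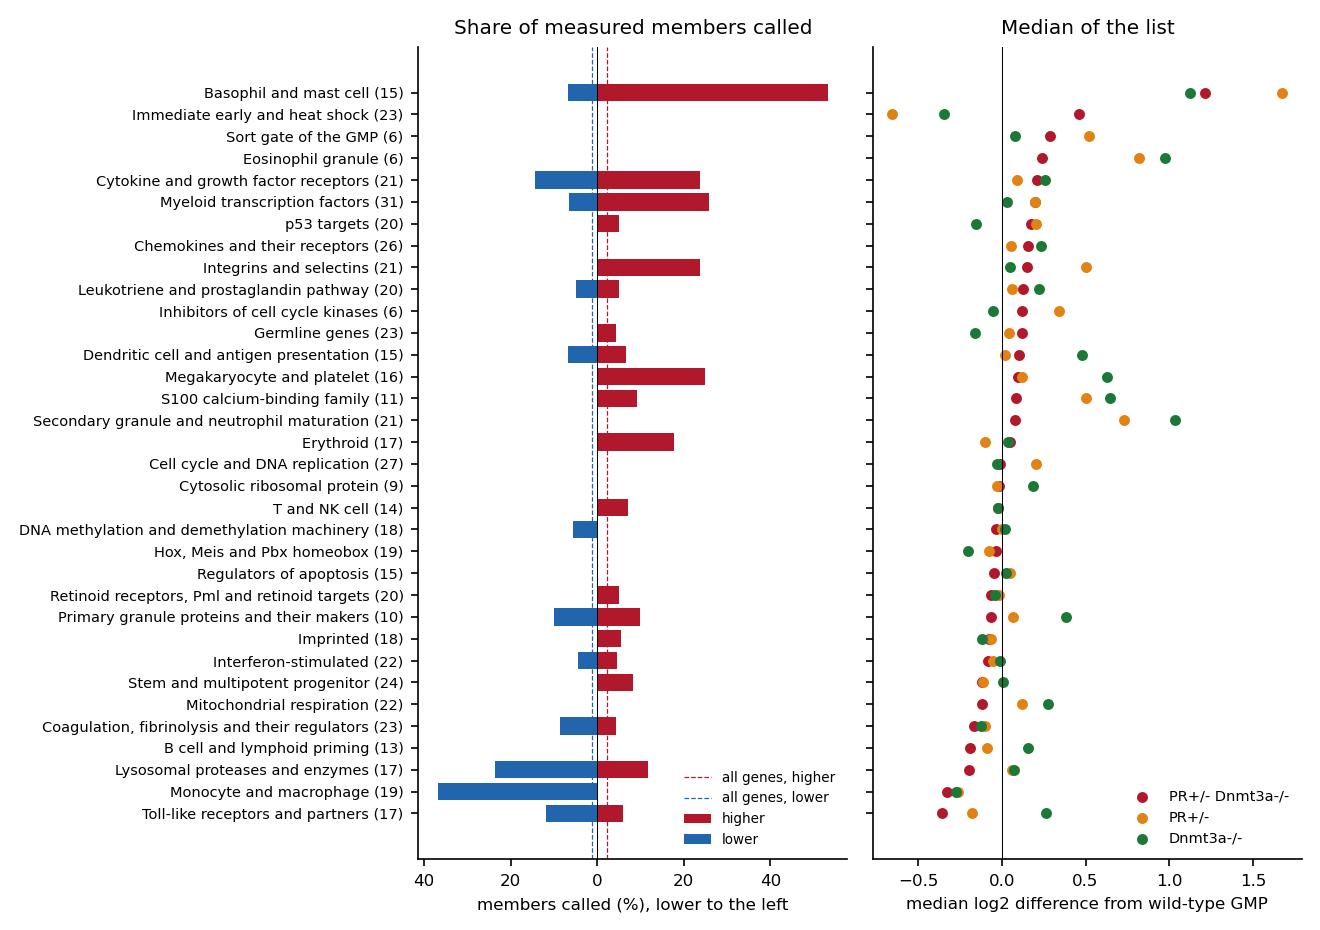
Left, share of the measured members (number in brackets) of 34 gene lists that were called higher (red, to the right) or lower (blue, to the left) in PR+/- Dnmt3a-/- than in wild-type GMP, with dashed lines at 2.22% and 1.31%, the shares over all genes. Right, median log2 difference from wild-type GMP of each list in the PR+/- Dnmt3a-/- (red), PR+/- (orange) and Dnmt3a-/- (green) groups, which share the wild-type arrays. Basophil and mast cell genes have the highest median in the first group (1.22) and Toll-like receptor and monocyte genes the lowest (-0.36 and -0.33). Lists share members, such as Ly86 in the monocyte and Toll-like receptor lists, so they are not independent of each other.

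PR+/- GMP differed from wild-type GMP in 484 genes (3.07%), 345 higher (2.19%) and 139 lower (0.881%), and Dnmt3a-/- GMP in 101 (0.64%), 70 higher (0.444%) and 31 lower (0.196%), by limma. These comparisons share the wild-type arrays with the one above, so values are set side by side only. Thy1 differed from wild-type by 4.89 ± 0.37 in PR+/- GMP and by 1.44 ± 0.33 in Dnmt3a-/- GMP, beside 4.26 ± 0.30 with both lesions. Nt5e differed by 4.38 ± 0.54 in PR+/- and by -0.05 ± 0.48 in Dnmt3a-/- GMP, beside 3.61 ± 0.44. The Dnmt3a-/- arrays of Nt5e were within the wild-type range, at 4.08, 3.96 and 3.76, and both PR+/- arrays were high, at 8.87 and 7.85.

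Ly86 was lower in each group, with differences of -2.61 ± 0.25 in PR+/- GMP, -1.68 ± 0.22 in Dnmt3a-/- GMP and -3.53 ± 0.21 with both. Its mean levels were 10.34 ± 0.31 (SD, n = 4) in wild-type, 8.66 ± 0.11 (SD, n = 3) in Dnmt3a-/-, 7.73 ± 0.65 (SD, n = 2) in PR+/- and 6.82 ± 0.24 (SD, n = 4) in PR+/- Dnmt3a-/- GMP. Irf8 differed by -1.97 ± 0.42, -1.18 ± 0.37 and -2.81 ± 0.34 in the same 3 groups. Grb10 differed by 0.93 ± 0.15 in PR+/- GMP and 0.30 ± 0.13 in Dnmt3a-/- GMP, less than the 1.90 ± 0.12 with both lesions. Its departure from their sum was 0.67 ± 0.20 (limma adjusted p = 0.222).

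Ctsg was close to its wild-type levels in each single-lesion group, with PR+/- arrays at 11.53 and 11.44 and Dnmt3a-/- arrays at 11.95, 11.80 and 11.93. Its difference was -0.10 ± 0.82 in PR+/- and 0.31 ± 0.73 in Dnmt3a-/- GMP, neither called, and -3.28 ± 0.67 with both. The departure from the sum of both was -3.49 ± 1.10 and did not pass the threshold (limma adjusted p = 0.23).

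PR+/- Dnmt3a-/- GMP were also compared with each single-lesion group. Against Dnmt3a-/- GMP, arrays of the other set, 195 genes were called (1.24%), 107 higher (0.678%) and 88 lower (0.558%). Against PR+/- GMP, arrays of the same set, limma called none of the 15781 genes (0%), with 2 PR+/- arrays on one side. At an unadjusted p below 0.05 there were 1458, and the smallest adjusted p was 0.0606. In that comparison Thy1 differed by -0.62 ± 0.37, Ly86 by -0.92 ± 0.25, Dnmt3a by -1.05 ± 0.16 and Ctsg by -3.18 ± 0.82.

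The sum of both single differences was compared with the difference in GMP with both lesions. By limma, 5 genes, or 0.0317% of all (2209 at an unadjusted p below 0.05), departed from the sum of both single differences over the 4 groups, and in all 5 the value with both lesions was below that sum. H2-Eb1, a class II beta chain, was at 8.35, 8.69 and 8.84 in Dnmt3a-/- arrays, against 5.61, 5.33, 5.36 and 5.41 in wild-type, 5.39 and 6.23 in PR+/- and 4.88, 5.47, 6.197 and 5.58 in PR+/- Dnmt3a-/- arrays. Its departure was -3.47 ± 0.41 (adjusted p = 0.00769, limma). Cd74, H2-Aa and H2-Ab1 were also highest in Dnmt3a-/- GMP, being higher than wild-type by 2.82 ± 0.30, 3.67 ± 0.58 and 2.19 ± 0.37 in Dnmt3a-/- GMP, but their departures were not called (limma adjusted p from 0.118 to 0.183).

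S100a4, a calcium-binding protein, was higher than wild-type in each single-lesion group, by 1.53 ± 0.26 without Dnmt3a and 1.60 ± 0.29 with the fusion. With both lesions it differed by 0.08 ± 0.24, a departure of -3.05 ± 0.39 (limma adjusted p = 0.00976). Alox5, which begins leukotriene synthesis, was higher by 1.64 ± 0.17, 1.38 ± 0.20 and 0.72 ± 0.16 in the same 3 groups, a departure of -2.31 ± 0.26 (limma adjusted p = 0.00769). Prss34 rose by 1.90 ± 0.24 in Dnmt3a-/- GMP and fell with both lesions (-1.89 ± 0.22), a departure of -2.91 ± 0.36 (limma adjusted p = 0.00843). Gdf3 was higher in all 3 groups and departed by -2.04 ± 0.27 (limma adjusted p = 0.0132). H2-Eb1 and S100a4 were named after their values were seen, as were Il18rap, Fads1, Fads3 and Pdgfrb.

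The 3 Dnmt3a-/- GMP arrays all have low Y-linked levels, from 2.54 to 2.91, and both PR+/- arrays high ones, 6.87 and 6.73. With the Y-linked level as a covariate none of the 15781 genes departed from the sum by limma (2691 at an unadjusted p below 0.05). The part of this difference in the 5 departures was not tested. Without the 4 arrays of high immediate early level 4 genes departed, and none of the 5 above was among them. The count of departures varied widely with the arrays and weights used. It was 25 with all 19 arrays, 40 with array weights, and 696 with only the 4 arrays of high level beside the single-lesion groups.

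**Figure D4:**
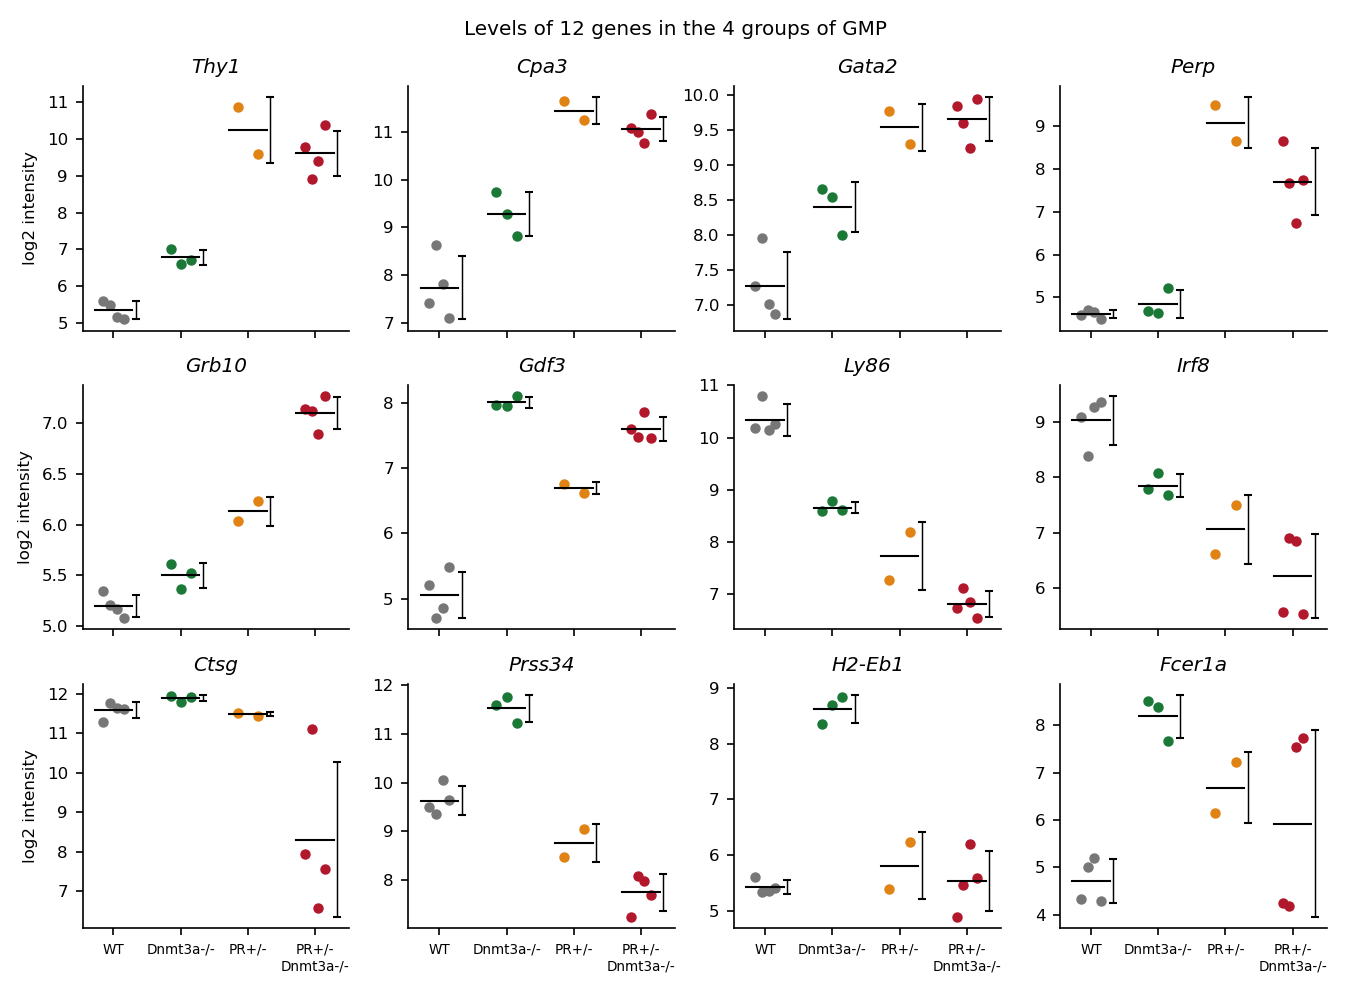
Log2 intensity of 12 genes on each array of wild-type (grey, 4 arrays), Dnmt3a-/- (green, 3), PR+/- (orange, 2) and PR+/- Dnmt3a-/- GMP (red, 4); black lines are group means and the bars beside them 1 SD, and each panel has its own vertical axis. Thy1 and Perp are high with the fusion with or without Dnmt3a, H2-Eb1 is high in the 3 Dnmt3a-/- arrays, Ctsg is low in 3 arrays of the last group, and Fcer1a splits that group into 2 arrays near 4.2 and 2 above 7.5.

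The comparison was repeated within the arrays of high and within those of low immediate early level, 2 against 2. The high set was not matched, with levels of 7.29 and 7.33 in wild-type and 8.15 and 8.07 in PR+/- Dnmt3a-/- arrays. Ly86 differed by -3.55 among the 4 arrays of high level and -3.50 among those of low level, and Csf1r by -1.76 and -1.58. Nt5e differed by 4.30 and 2.92, Thy1 by 3.79 and 4.74, and Id2 by 1.04 and 2.04. Ctsg differed by -1.995 and -4.56, the larger difference being in the arrays of low level. Fcer1a differed by -0.46 and 2.89. All 73 called genes named here kept their direction in both sets of arrays. That outcome is fixed in advance for a gene whose groups do not overlap, as in 536 of the 556 called genes. Of the 73, 51 stayed called with the arrays of low level and 40 with those of high level. Both fits had fewer arrays and kept the single-lesion groups.

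Medians of gene lists also differed between these sets of arrays. The median of the basophil and mast cell list was 1.40 in the arrays of low immediate early level and 0.41 in those of high level. The secondary granule list had medians of 0.52 and -0.32 and the megakaryocyte list of 0.35 and -0.18, opposite in sign. The monocyte list had medians of -0.40 and -0.53. The immediate early list itself differed by -0.08 and 0.91. The part of handling in these lists was not tested.

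**Figure D5:**
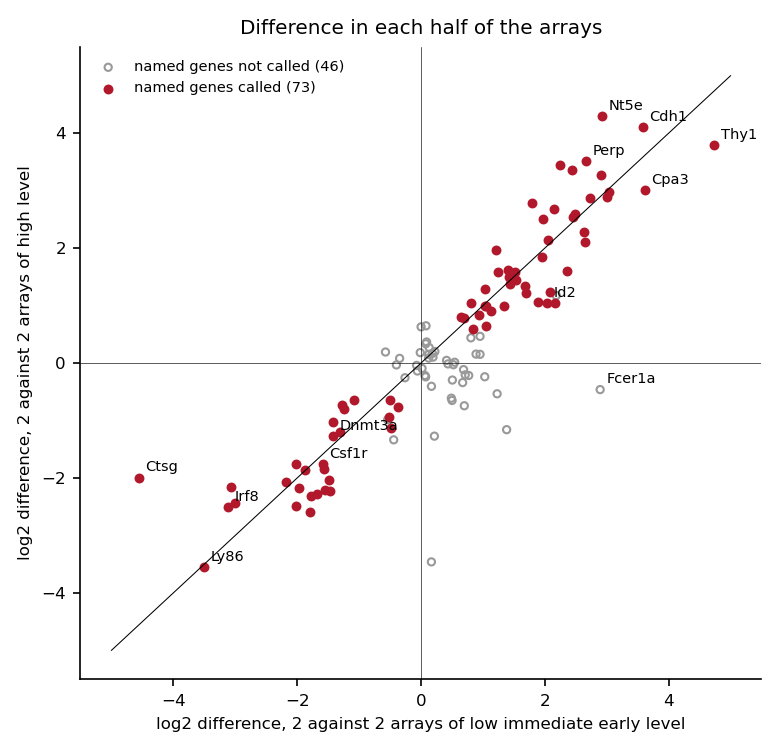
Log2 difference between PR+/- Dnmt3a-/- and wild-type GMP for the 119 named genes, from the 2 against 2 arrays of low immediate early level (horizontal axis) and from the 2 against 2 of high level (vertical axis); filled red points are the 73 called genes, open circles the 46 not called, and the line marks equal differences. All 73 called genes have the same sign on both axes, which is fixed in advance for genes whose groups do not overlap. Ctsg lies above the line at -4.56 and -1.995, and Fcer1a lies far from it at 2.89 and -0.46.

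Among the 4 promoters printed above, the Nt5e window holds 21 CG sites, that of Ly86 11, that of Ctsg 7 and that of Cpa3 3. Over the 12609 genes with an entry the median was 12 CG sites. It was 15 for the 272 genes called higher that have an entry and 10 for the 168 called lower, and the quartiles of both, 5 to 23.25 and 3.75 to 18, overlapped those of all genes (4 to 20). No methylation was measured on these arrays.

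The same windows were searched on both strands for 3 motifs, AGGTCA (the core letters of retinoic acid receptor sites), AGATAA (bound by GATA factors) and the ETS-IRF composite element. AGGTCA was found in 8.46% of the windows of genes called higher, 11.3% of those called lower and 11.8% of all. AGATAA was found in 7.72%, 9.52% and 8.39%, and the ETS-IRF composite element in 3.31%, 2.38% and 2.25%. Of the 4 windows printed, that of Cpa3 holds 1 AGATAA and the others hold none of the 3 motifs. Overlap between motifs was not examined, the motifs were chosen with results known, and a match or its lack describes these letters alone.

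The calls of named genes that missed the threshold in at least 1 of the 8 fits that left out 1 array are the following. Ctsg and Ms4a4c are given above. Plek, a platelet protein (1.49 ± 0.35), and Angpt1, a ligand of progenitors (1.61 ± 0.39), each missed the threshold in 5 of 8 fits that left out 1 array, without wild-type array 3 or 4 or PR+/- Dnmt3a-/- array 1, 2 or 4 (limma adjusted p up to 0.0966 and 0.102). S100a6 (1.48 ± 0.32) missed it without wild-type array 2 or 4 or PR+/- Dnmt3a-/- array 1 or 4, with an adjusted p in limma of up to 0.056. Alox5 (0.72 ± 0.16) missed it without wild-type array 1 or 4 or PR+/- Dnmt3a-/- array 3 or 4 (up to 0.0758). Fads1 missed it without wild-type array 2, 3 or 4 or PR+/- Dnmt3a-/- array 1 or 4 (up to 0.0617).

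Tbxas1, the thromboxane synthase (-1.26 ± 0.28), missed the threshold without wild-type array 3 or 4 (limma adjusted p up to 0.074). Ctsl, a lysosomal cathepsin (0.72 ± 0.17), missed it without wild-type array 2, 3 or 4 or PR+/- Dnmt3a-/- array 1, 2 or 4 (up to 0.11). Ctsz, another (-0.56 ± 0.13), missed it without wild-type array 1, 3 or 4 or PR+/- Dnmt3a-/- array 1 or 2 (up to 0.0939). Pros1, the anticoagulant protein S (-0.81 ± 0.19), missed it without wild-type array 1, 2 or 4 or PR+/- Dnmt3a-/- array 1, 2 or 3 (up to 0.0885). The other 62 called genes named here passed it in all 8 of these fits.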

How the data were processed

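The authors deposited 1 table, with a linear intensity from 1.34 to 16208, for each of 194293 exon-level probe sets on 19 arrays. RMA and Partek were used with build mm9, per the submitters' processing notes, which give no role or version. RNA (20 ng a sample) was amplified and labelled with biotin, per the labels' protocols. Array medians lay between 53.0 and 56.8, and the number of arrays limits the precision.

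Here log2 was taken and averaged over the probe sets that carry 1 symbol alone (179496 of 194293), giving 15781 genes with a median of 9 probe sets and no filter on dim genes. Probe sets with several symbols (1328) or none (13469) were left out. Symbols were updated through a RefSeq table of GRCm38.p6, for 2039 genes (13727 were found as annotated, 37 kept). The 13 GMP arrays were fitted with limma 3.58.1 (lmFit, eBayes) in R 4.3.3, with a mean per group. The summaries used pandas 2.3.3 in Python 3.11.15. On simulated data of 15781 genes for this comparison, 72% of genes changed by 1 and 96% of those changed by 2 (log2) were recovered. There, 7 of 175 called genes were unchanged ones. Recovery with arrays split by immediate early level within groups, or with genotype tied to array set, was not tested.

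Wild-type and Dnmt3a-/- replicates are numbered in the order of their title numbers, PR+/- replicates as titled. Named genes are the 15 largest rises and 15 largest falls among called genes without overlap, with at least 3 probe sets, a higher group at least 1 (log2) above background and a symbol that is no predicted model. Up to 4 called members per list and direction, Dnmt3a, Pml, Rara, Ctsg and the cell type markers were added. H2-Eb1, S100a4, Il18rap, Pdgfrb, Fads1 and Fads3 were named after their values were seen. Markers without a probe set of their own symbol, such as Elane, were not analysed here. Members, lists and motifs were chosen with earlier results of these data known. Alternatives changed the arrays fitted, the probe set summary, the filter, the normalization, the weights, the minimum fold and covariates.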

Additional observations from a re-analysis of the deposited data

Results flagged for a closer look

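Dixon's test at the 95% level was run on each of the 119 named genes in both groups. In 7 genes an array stands apart from the other 3 of its group. Chance alone gives this in about 1 in 20 groups, so 7 is no more than chance would give. Ms4a2 was at 6.504 in wild-type array 3, against 5.47 to 5.63 in the other wild-type arrays. Klf4 was at 6.73 in wild-type array 4 and Adgre1 at 5.76 in wild-type array 3, where the others were at 7.05 to 7.09 and 5.11 to 5.15. Camp, an antimicrobial peptide of neutrophil granules, was at 10.14 in wild-type array 1 and at 9.71 to 9.76 in the others. In PR+/- Dnmt3a-/- array 2, Stxbp6 was high (4.17, others 3.85 to 3.89), Mcpt8 low (11.41, others 11.95 to 11.999) and Kit high (9.56, others 9.30 to 9.33).

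By limma, 5 genes departed from the sum of the PR+/- and the Dnmt3a-/- difference, tested as such. The departures were -3.47 ± 0.41 (SE) for H2-Eb1, -3.05 ± 0.39 for S100a4, -2.91 ± 0.36 for Prss34, -2.31 ± 0.26 for Alox5 and -2.04 ± 0.27 for Gdf3. All 5 stayed past the threshold in each of the 8 fits that left out 1 wild-type or PR+/- Dnmt3a-/- array, and none did with the Y-linked level as a covariate.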

How the results depend on the processing

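Across 20 alternatives the 556 called genes kept their direction wherever tested (545 of them passed the filter on dim genes), and of the 73 called genes named 32 stayed called in every one. In fits that only leave out arrays, direction could not change in the 536 called genes whose groups do not overlap. The count of 556 (350 higher, 206 lower) fell to 82 (62 and 20) for a minimum of 1.5-fold, which is a stricter test, and moved the share of higher calls from 62.9% to 75.6%. It fell to 310 (194 and 116) without the 4 arrays of high immediate early level and to 215 (122 and 93) with only those, an alternative chosen after seeing the data; both have fewer arrays. Leaving out 1 array gave 385 to 536 genes, 244 to 352 higher and 138 to 188 lower. The count of 5 departures was 25 with all 19 arrays, 8 with the median of probe sets, 40 with array weights, 0 with the Y-linked covariate, and 5 to 14 with 1 array left out. The cause was not tested. No paired analysis was possible because the title numbers of the wild-type arrays are carried by no PR+/- Dnmt3a-/- array. The deposited table holds no detection call. With only the arrays of high level and the single-lesion groups, 696 genes departed from the sum. Without the arrays of high level 238 of the 556 were still called.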

Other observations

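Called genes were looked up for their neighbours on the chromosome, in the gene order of the RefSeq table. Of 545 called genes with a place, 38 pairs lay next to each other, 15 with both genes higher, 11 with both lower and 12 with opposite directions. Pdgfrb, a receptor of platelet-derived growth factor, and Csf1r, its relative and neighbour, moved apart: Pdgfrb was at 5.23, 5.31, 5.01 and 5.11 in wild-type and 7.65, 7.15, 6.76 and 7.47 in PR+/- Dnmt3a-/- arrays (2.09 ± 0.19, limma adjusted p = 6.75e-05), while Csf1r differed by -1.67 ± 0.16. Mcpt8 and Ctsg, neighbours in the cluster of granule proteases, differed by 1.97 ± 0.23 and -3.28 ± 0.67. How often neighbours would be called together by chance was not tested.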
